A study of Mus musculus with 7 samples.

Results

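Genes that bring pyruvate into the mitochondrion, run the tricarboxylic acid (TCA) cycle and carry reducing equivalents across the mitochondrial membrane were followed in RNA-seq of sorted β-cells. The set is a list of 44 gene symbols sorted here into 10 roles, and members were the rows of the count table with those symbols. Of the 44 members, 43 matched by symbol and 1, pyruvate carboxylase (Pc), by its synonym Pcx, out of 35013 symbols in the table. There were 7 libraries, each of 1 mouse: 2 of Aldh1a3 KO_db/db, 2 of db/db and 3 of db/+. KO_db/db mice carried RIP-Cre Herr, 2 floxed Aldh1a3 alleles, 1 floxed tdT reporter allele and Lepr db/db. The db/db mice had the same Cre, reporter and Lepr genotype with 1 floxed Aldh1a3 allele, and db/+ mice differed from them in being heterozygous at Lepr. Every group therefore carried Cre, the reporter and at least 1 floxed Aldh1a3 allele, and no library came from mice without Cre. Without a working leptin receptor, Lepr db/db mice grow obese and diabetic, whereas carriers (db/+) stay lean. The Cre is driven by an insulin promoter, so that the deletion is aimed at β-cells. By the animal methods, the line was backcrossed to db/db mice of strain B6.BKS(D)-Lepr db/J. The sample labels do not give the genetic background of each mouse. Mice were fasted before islets were taken. By the general animal methods, mice of both sexes aged 16 to 20 weeks were used, while the sample labels give neither age nor sex. The sort gate used for these libraries is not stated in the sources used here.

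In a β-cell, most glucose carbon ends as pyruvate and enters the mitochondrion through a carrier made of MPC1 and MPC2. There it becomes acetyl-CoA through pyruvate dehydrogenase, which its kinases (PDK) switch off, or oxaloacetate through pyruvate carboxylase. Oxidation of these products in the TCA cycle drives ATP production and insulin secretion. NADH made in the cytosol cannot cross the inner membrane, and the malate-aspartate and glycerol phosphate shuttles pass its electrons on. Carboxylation of pyruvate and export of malate, citrate or isocitrate form cycles that yield cytosolic NADPH, and β-cells are known for high pyruvate carboxylase and very low lactate dehydrogenase.

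Total counts ran from 27496645 to 35852785 (median 31355436), and 3 counts, taken as the detection floor, equalled 0.0717 to 0.123 CPM, the count scaled to a fixed library size. All 10 β-cell markers of a fixed list had counts in each group. They summed to 202000 to 225000 CPM in db/db, 395000 to 443000 CPM in db/+ and 226000 to 298000 CPM in KO_db/db. The deleted gene, Aldh1a3, had 4.97 and 7.89 CPM in KO_db/db, 98.4 and 194 CPM in db/db, and 0.205, 0.0729 and 0.589 CPM in db/+. The KO_db/db library of mouse 1 stood apart: 41 acinar marker genes in the table took 17.6% of its counts, against 1.99% in KO_db/db mouse 2, 0.0415% to 0.0572% in db/db and 0.00704% to 0.033% in db/+. Alpha-cell markers summed to 2080 to 2530 CPM in db/db, 1070 to 1700 CPM in db/+ and 1180 to 1650 CPM in KO_db/db, and delta-cell markers to 87.4 to 169 CPM, 381 to 2330 CPM and 519 to 652 CPM. Gcg, the glucagon gene that defines alpha cells, was not higher in db/db, at 602 and 349 CPM against 1090, 1180 and 381 CPM in db/+ and 1030 and 619 CPM in KO_db/db, so the higher sum in db/db came from other genes of that list. Together the Y-linked genes Ddx3y, Kdm5d, Uty and Eif2s3y had 2911 counts in db/+ mouse 3 and 20 to 79 in each other library. The part of these differences in the results below was not tested, beyond the fits without each library. Each library came from its own mouse, and p-values measure the spread between these mice. In bulk RNA, fewer cells of a type and less RNA per cell cannot be told apart.

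Promoter sequence is shown for Pc, the member that fell most in db/db and the one called in KO_db/db against db/db, and for Pdk4 and Pdk1, the members that rose most in db/db. The windows are RefSeq sequence of GRCm38.p6, from 250 bases before to 50 bases after an annotated start, written 5′ to 3′ along the gene. Capitals mark matches, on either strand, to the E-box CACGTG, to ACGTG and GCGTG (forms of the core of the hypoxia response element), to the nuclear receptor half-site AAGGTCA and to the CCAAT box. These motifs were chosen after the values had been seen, and ACGTG lies within every CACGTG. The windows are chr19:4510222-4510521 on the + strand for the first of 2 starts of Pc, chr2:71872974-71873273 on the + strand for the first of 2 starts of Pdk1, and chr6:5496229-5496528 on the - strand for Pdk4.
Pc: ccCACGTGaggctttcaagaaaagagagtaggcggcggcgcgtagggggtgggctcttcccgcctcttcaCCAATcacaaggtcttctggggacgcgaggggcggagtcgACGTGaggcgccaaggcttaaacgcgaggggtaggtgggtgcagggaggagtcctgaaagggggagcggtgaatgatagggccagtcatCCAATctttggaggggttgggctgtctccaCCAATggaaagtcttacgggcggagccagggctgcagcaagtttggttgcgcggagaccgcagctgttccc
Pdk1: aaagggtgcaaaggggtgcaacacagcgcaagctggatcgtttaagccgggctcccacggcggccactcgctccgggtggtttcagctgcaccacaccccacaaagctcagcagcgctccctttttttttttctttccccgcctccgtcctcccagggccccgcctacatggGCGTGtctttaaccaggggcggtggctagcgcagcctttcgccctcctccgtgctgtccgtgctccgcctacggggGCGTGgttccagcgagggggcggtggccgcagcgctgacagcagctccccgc
Pdk4: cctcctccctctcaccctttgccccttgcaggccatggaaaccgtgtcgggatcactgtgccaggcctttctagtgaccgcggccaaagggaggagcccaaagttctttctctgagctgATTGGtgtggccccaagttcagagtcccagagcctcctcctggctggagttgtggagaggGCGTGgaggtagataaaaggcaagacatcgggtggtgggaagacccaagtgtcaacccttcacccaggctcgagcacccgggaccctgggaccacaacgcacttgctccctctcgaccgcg
The Pc window held 1 CACGTG, 1 further ACGTG and 3 CCAAT, the Pdk1 window 2 GCGTG and no CCAAT, and the Pdk4 window 1 GCGTG and 1 CCAAT, read as ATTGG. None of the 3 windows held AAGGTCA. The second start of Pc (chr19:4594069-4594368) held 1 CCAAT, and that of Pdk1 (chr2:71874654-71874953) held none of the motifs. Of 32851 mouse windows of this length, 7.15% held CACGTG, 19.6% ACGTG, 32.4% GCGTG, 4.72% AAGGTCA and 37.4% CCAAT. Of 52 windows found for 40 members, 13.5% held CACGTG, 32.7% ACGTG, 53.8% GCGTG, 5.77% AAGGTCA and 59.6% CCAAT. A match is a description of letters and not a binding site.

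Levels of different members can be compared only per transcript length, and were taken as CPM per kilobase of the principal GENCODE transcript. In db/+ β-cells the highest means were those of the malate dehydrogenases Mdh2 (83.3 CPM per kb) and Mdh1 (80.7), the succinate dehydrogenase subunits Sdhd (80.8) and Sdha (79.0), and Ogdh (66.2), which encodes the decarboxylating subunit of the 2-oxoglutarate dehydrogenase complex. Ranges over the 3 libraries overlapped among the first 4, and Ogdh lay below them. The lowest were the second aspartate-glutamate carrier Slc25a13 (2.54 CPM per kb) and Pdk4 (0.0841). Pc held rank 13 of 44 in db/+ (39.0 CPM per kb), rank 37 in db/db (7.81) and rank 11 in KO_db/db (35.8). Its range in db/db, 6.72 to 8.89 CPM per kb, lay below every library of the other groups. Idh2 went from rank 6 in db/+ to 17 in db/db and 14 in KO_db/db. Gpd1 went from rank 32 in db/+ to 14 in db/db and 25 in KO_db/db.

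**Figure D1:**
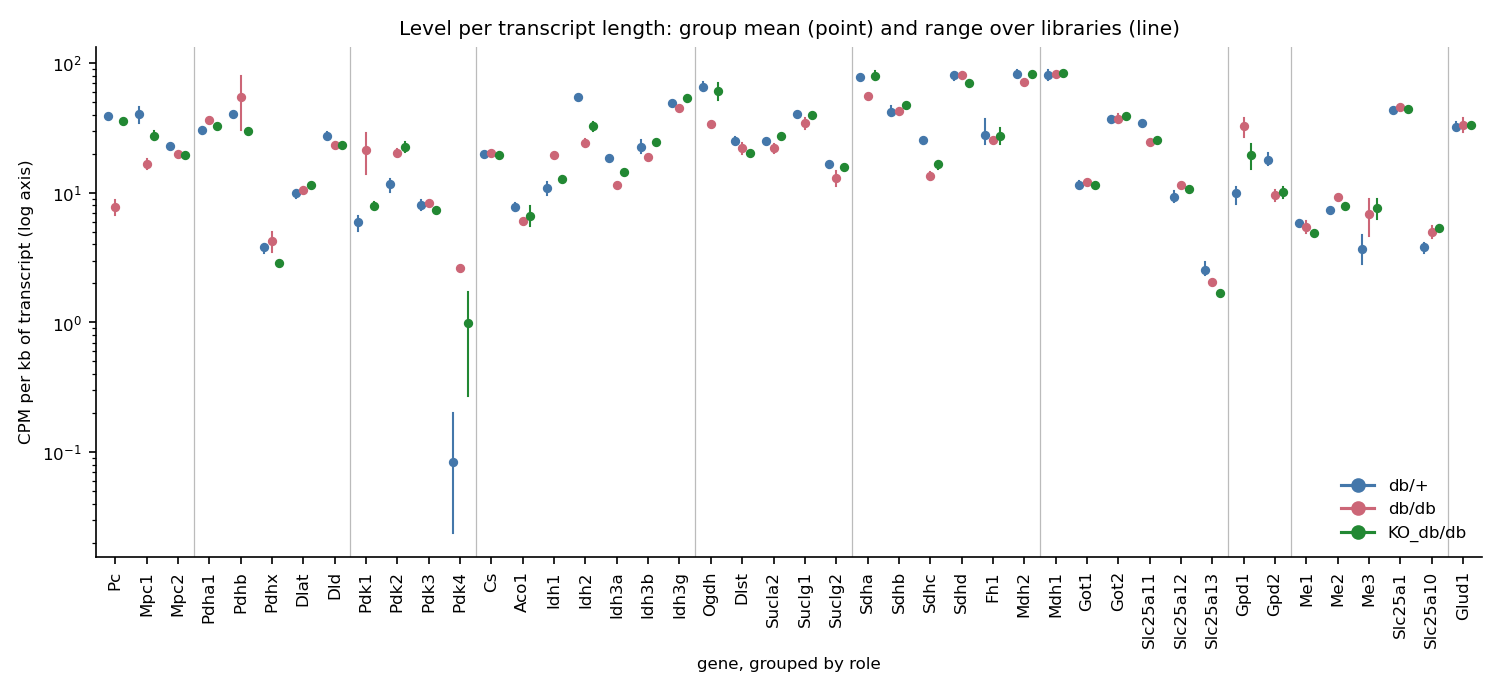
Level of each of the 44 genes in CPM per kilobase of transcript (log axis), grouped by role, with the group mean as a point and the range over libraries as a line. Most genes lie at like levels in the 3 groups, and Pc drops from 39.0 in db/+ to 7.81 in db/db and lies at 35.8 in KO_db/db.

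All 44 members passed the filter on low counts in each comparison. Calls are those of the quasi-likelihood test of edgeR at an adjusted p of 0.05, by the method of Benjamini and Hochberg over all genes tested, and each fold change is log2 of the first group over the second. In db/db against db/+, 14 of 44 members were called (31.8%), 5 higher and 9 lower, beside 37.8% of all 13406 genes tested (19.9% higher and 18.0% lower). The share of members called was thus near that of all genes, and the members' median log2 fold change of -0.07 lay near the all-gene median of 0.0064. The groups did not overlap for 9 higher members (all genes: 32.6%) and 19 lower members (30.7%). Pc, Mpc1, Idh2, Idh3a, Ogdh, Sdha, Sdhc, Slc25a11 and Gpd2 fell, and Pdk1, Pdk2, Pdk4, Idh1 and Gpd1 rose. Without adjustment, 19 members had p under 0.05 (all genes: 48.2%). Each of the 14 calls held in each of the 5 fits that left out 1 library. With total counts as the scale, which moved the median of all genes to 0.497, 22 members were called higher and 6 lower, beside 50.5% of all genes, and 11 of the 14 calls remained (lost: Idh3a, Sdha and Slc25a11).

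In KO_db/db against db/db, 1 of 44 members was called, Pc, which was higher, beside 0.319% of all 13486 genes (0.126% higher). A further view without adjustment gave 9 members with p under 0.05, beside 20.9% of all genes. The members' median log2 fold change was 0.06, against -0.02 over all genes tested. The groups did not overlap for 15 higher members (all genes: 28.4%) and 12 lower members (29.1%). Without KO_db/db mouse 1, Pc and Pdk4 were called, and without db/db mouse 1 the call of Pc was lost. DESeq2 called 6 members (Pc, Mpc1, Ogdh and Sdha higher, Pdk1 and Idh1 lower), beside 9.59% of the genes it tested. With total counts as the scale, 1 member was called higher (Pc) and 4 lower (Pdhb, Pdk1, Pdk4 and Gpd1), beside 9.05% of all genes.

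In KO_db/db against db/+, 14 of 44 members were called, 6 higher and 8 lower, beside 38.4% of all 13228 genes (20.5% higher and 17.9% lower). Pdk1, Pdk2, Pdk4, Gpd1, Me3 and Slc25a10 rose, and Mpc1, Pdhb, Idh2, Idh3a, Dlst, Sdhc, Slc25a11 and Gpd2 fell. Without adjustment, 16 members had p under 0.05 (all genes: 48.8%). The median was -0.0011, and that of all genes -0.0034. The groups did not overlap for 11 higher members (all genes: 31.7%) and 14 lower members (32.5%). Some of the 14 calls were lost in each of the 5 fits that left out 1 library. Each such fit also has fewer mice, and the part of the high acinar share of KO_db/db mouse 1 in these losses was not tested. Without db/+ mouse 1, 2 and 3, 7, 9 and 11 of the 14 calls remained, beside 26.2%, 27.1% and 36.4% of all genes called. Pdhb, Pdk2, Idh2, Sdhc, Slc25a11 and Gpd2 were called in each of the 5 fits that left out 1 library. With total counts as the scale, the 6 higher members were called and none of the 8 lower ones, beside 27.4% of all genes. The 3 comparisons share libraries in pairs, so their values are set side by side below and are not independent of each other.

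**Figure D2:**
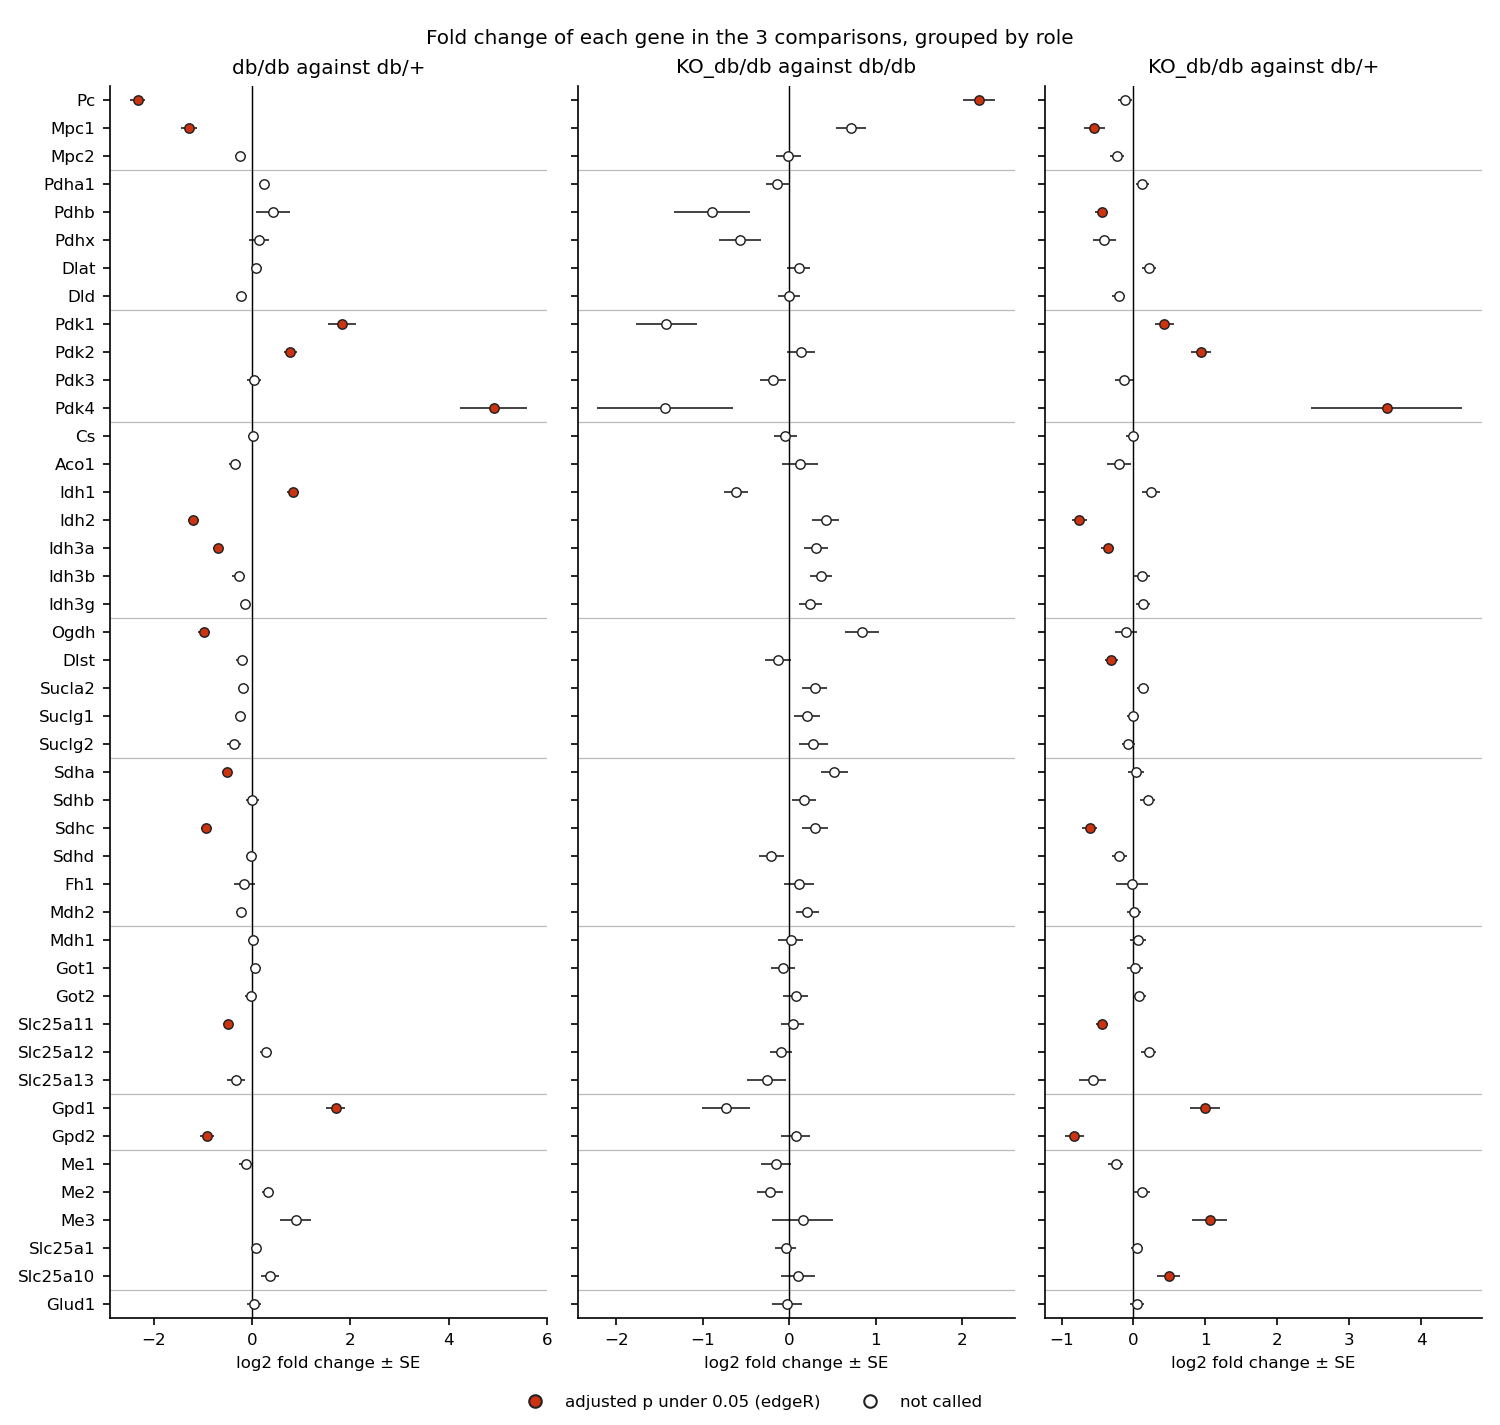
log2 fold change ± SE of the 44 genes in each comparison, ordered by role as in the text (grey lines part the roles), filled where the adjusted p of edgeR was under 0.05. Against db/+, 14 genes are filled in db/db and 14 in KO_db/db, and Pc alone, at 2.19, is filled in KO_db/db against db/db.

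The first role, carboxylation and import of pyruvate, held Pc, Mpc1 and Mpc2. Pc (chromosome 19 of GRCm38, 4510472 to 4621752) makes oxaloacetate from pyruvate and refills the TCA cycle. It had 27.3 and 36.1 CPM in db/db, 157, 166 and 151 CPM in db/+, and 148 and 143 CPM in KO_db/db. Both db/db libraries were far below every other library, and both KO_db/db libraries lay just under the lowest db/+ library. Pc fell by 2.33 on the log2 scale in db/db against db/+ (SE 0.155, edgeR adjusted p = 0.000447), to 19.9% of the db/+ level. Against db/db, the KO_db/db libraries were higher by 2.19 (SE 0.182, edgeR adjusted p = 0.04), a 4.58-fold difference with a 95% interval of 1.74 to 2.65 on the log2 scale. That call was lost without db/db mouse 1 (2.01, edgeR adjusted p = 0.0678), and over all alternatives the adjusted p ran from 1.65e-23 to 0.0798 with log2 fold changes from 1.93 to 2.41. KO_db/db against db/+ gave -0.12 for Pc (edgeR adjusted p = 0.358, 95% interval -0.339 to 0.106).

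Mpc1 (chromosome 17, 8282904 to 8297661) encodes a subunit of the mitochondrial pyruvate carrier. It had 14.6 and 17.5 CPM in db/db, 44.2, 39.0 and 33.0 CPM in db/+, and 28.6 and 24.3 CPM in KO_db/db. The 3 groups did not overlap, with KO_db/db in between. Relative to db/+, Mpc1 fell in db/db (-1.28, SE 0.166, edgeR adjusted p = 0.00214) and in KO_db/db (-0.54, SE 0.15, edgeR adjusted p = 0.0287). The latter call was lost without KO_db/db mouse 1 (-0.66), KO_db/db mouse 2 (-0.44), db/+ mouse 1 (-0.44) or db/+ mouse 2 (-0.54). Its difference of 0.72 between KO_db/db and db/db had an adjusted p of 0.135 by edgeR, and 0.0298 by DESeq2. Mpc2, the partner subunit, lay between 19.6 and 23.8 CPM in all 7 libraries and was called in no comparison.

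Pyruvate dehydrogenase converts pyruvate to acetyl-CoA, and its 5 member genes (Pdha1, Pdhb, Pdhx, Dlat and Dld) gave 0 calls by the main edgeR fits in db/db, whether set against db/+ or against KO_db/db, and none had an unadjusted p under 0.05 in these fits. DESeq2 called none of the 5 in either comparison. With total counts as the scale, edgeR called Pdha1, Pdhx and Dlat higher in db/db against db/+. Pdhb was called lower in KO_db/db against db/db with total counts and with no filter on low counts. Pdha1, the alpha subunit that the kinases phosphorylate, ran from 80.9 to 108 CPM over all 7 libraries. Pdhb (chromosome 14, 8165996 to 8173025), the beta subunit of the same enzyme, had 121 and 46.2 CPM in db/db, 63.8, 61.7 and 59.6 CPM in db/+, and 46.1 and 44.3 CPM in KO_db/db. Its db/db libraries lay on either side of db/+, so that the log2 fold change of 0.43 in db/db against db/+ turned to -0.43 without db/db mouse 1. Against db/+, Pdhb fell in KO_db/db (-0.44, SE 0.0859, edgeR adjusted p = 0.00888).

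The 4 pyruvate dehydrogenase kinases switch the complex off by phosphorylation, and 3 of them rose in db/db against db/+. Pdk4 (chromosome 6, 5483351 to 5496309), the isoform known to be induced by fasting, had 302 and 390 counts in db/db (8.86 and 9.32 CPM) and 2, 19 and 3 counts in db/+ (0.0819, 0.693 and 0.104 CPM). In KO_db/db it had 145 and 39 counts (5.95 and 0.947 CPM). The db/db libraries were alike, those of KO_db/db differed from each other, and in db/+ 1 library was under the floor and 1 at it. The log2 fold change in db/db against db/+ was 4.91 (SE 0.684, edgeR adjusted p = 0.00266), or 6.53 without db/+ mouse 2. For KO_db/db over db/+ it was 3.52 (SE 1.05, edgeR adjusted p = 0.0378), and 1.68 with the call lost without KO_db/db mouse 1. This call was also lost without db/+ mouse 1 or mouse 3 (3.10 in each). The value for KO_db/db over db/db was -1.43 (edgeR adjusted p = 0.351), and -3.26 with a call without KO_db/db mouse 1 (edgeR adjusted p = 0.0313).

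Pdk1 (chromosome 2, 71873224 to 71903858), an isoform known as a target of hypoxia signalling, had 149 and 71.8 CPM in db/db, 26.4, 34.1 and 32.1 CPM in db/+, and 43.9 and 38.9 CPM in KO_db/db. Both db/db libraries were above all others, with db/db mouse 1 far above mouse 2. Pdk1 rose in db/db against db/+ (1.83, SE 0.287, edgeR adjusted p = 0.00397), by 1.21 without db/db mouse 1. It also rose in KO_db/db against db/+ (0.43, SE 0.135, edgeR adjusted p = 0.0441), a call that was lost without any 1 of the 5 libraries (0.33 to 0.51). KO_db/db against db/db gave -1.42 (edgeR adjusted p = 0.135), with a call by DESeq2 (adjusted p = 0.00058) and by the edgeR fit without db/db mouse 2 (-1.85).

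Pdk2 (chromosome 11, 95026258 to 95041354), a widely expressed isoform, had 42.8 and 49.3 CPM in db/db, 22.9, 27.9 and 28.9 CPM in db/+, and 55.2 and 46.4 CPM in KO_db/db. It was higher in each db/db and KO_db/db library than in each db/+ library, and the first 2 groups overlapped. Pdk2 rose in db/db (0.78, SE 0.141, edgeR adjusted p = 0.00653) and in KO_db/db (0.94, SE 0.137, edgeR adjusted p = 0.00345) against db/+. Between KO_db/db and db/db the difference was 0.14 (95% interval -0.263 to 0.537, edgeR adjusted p = 0.642), and -0.13 with total counts as the scale. Pdk3, the remaining isoform, ran from 15.4 to 18.8 CPM and was called in no comparison.

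**Figure D3:**
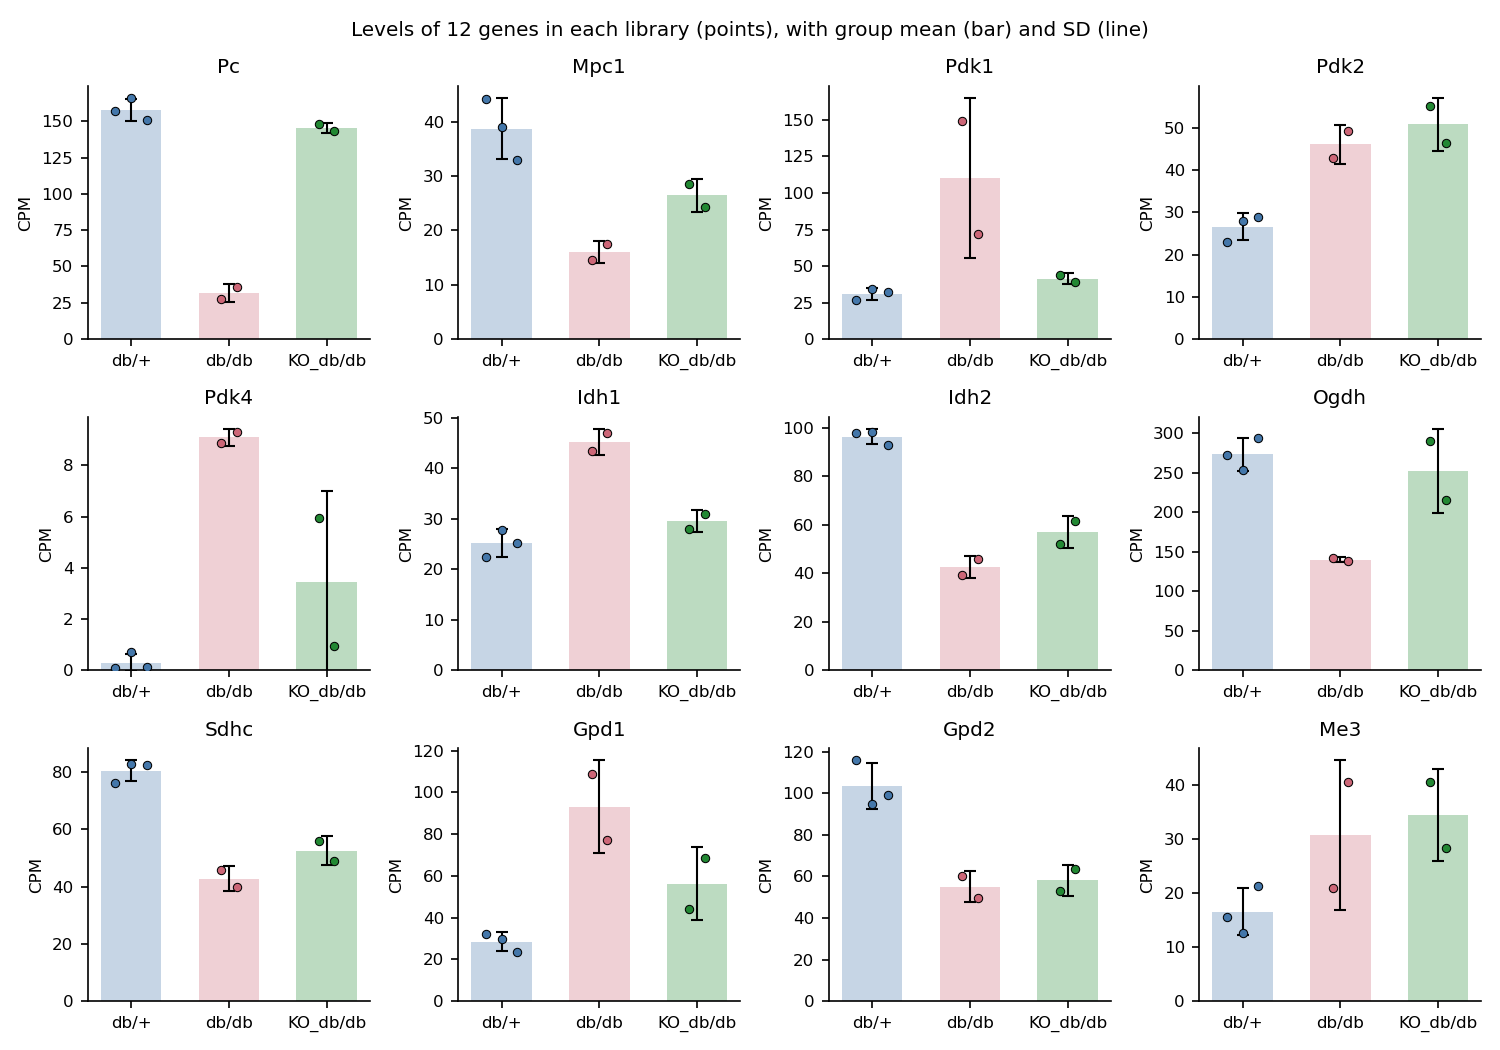
CPM of 12 genes in each library (points), with the group mean as a bar from 0 and the SD as a line (n = 3 for db/+, 2 for db/db and 2 for KO_db/db). Pc lies at 27.3 and 36.1 CPM in db/db and between 143 and 166 CPM in all other libraries, Idh2, Sdhc and Gpd2 are lower than db/+ in both db/db and KO_db/db, and the 2 KO_db/db libraries of Pdk4 lie far apart.

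From citrate to 2-oxoglutarate, 1 of 7 members rose and 2 fell in db/db against db/+. Citrate synthase (Cs), which opens the cycle, ran only from 55.0 to 60.4 CPM over all 7 libraries. Idh2 (chromosome 7, 80094846 to 80115392), the NADP-dependent isocitrate dehydrogenase of the mitochondrion, had 39.2 and 45.7 CPM in db/db, 98.1, 98.4 and 92.8 CPM in db/+, and 52.2 and 61.7 CPM in KO_db/db. The groups did not overlap. Idh2 fell in db/db (-1.19, SE 0.115, edgeR adjusted p = 0.00096) and in KO_db/db (-0.75, SE 0.103, edgeR adjusted p = 0.00277) against db/+, and the 0.42 between KO_db/db and db/db was not called (edgeR adjusted p = 0.225).

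Idh1 (chromosome 1, 65158616 to 65186500), the cytosolic enzyme of the same reaction, went the other way. It had 43.4 and 47.0 CPM in db/db, 22.3, 27.8 and 25.2 CPM in db/+, and 28.0 and 31.0 CPM in KO_db/db. Both db/db libraries were above all others, and KO_db/db lay just above db/+. Idh1 rose in db/db against db/+ (0.84, SE 0.127, edgeR adjusted p = 0.00358). In KO_db/db it was -0.62 against db/db (edgeR adjusted p = 0.123, DESeq2 adjusted p = 0.0229) and 0.24 against db/+ (edgeR adjusted p = 0.17). Of the NAD-dependent isocitrate dehydrogenase, the catalytic subunit Idh3a fell in db/db (-0.69, SE 0.101, edgeR adjusted p = 0.00315) and in KO_db/db (-0.36, SE 0.0921, edgeR adjusted p = 0.0228) against db/+. Its db/db libraries were at 27.7 and 27.9 CPM, those of KO_db/db at 36 and 33 CPM and those of db/+ at 44.0, 44.4 and 44.9 CPM. The call in KO_db/db was lost without KO_db/db mouse 2, db/+ mouse 1 or db/+ mouse 2, and with total counts as the scale neither call held (-0.20 in db/db and -0.15 in KO_db/db). Idh3b and Idh3g, the other subunits, and Aco1, the cytosolic aconitase, were called in no comparison.

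From 2-oxoglutarate to succinate, 1 of 5 members fell in db/db against db/+ and none rose. Ogdh (chromosome 11, 6291633 to 6356642) had 142 and 138 CPM in db/db, 273, 253 and 294 CPM in db/+, and 290 and 215 CPM in KO_db/db. Both db/db libraries were below all others, and of the KO_db/db libraries 1 lay within the db/+ range and 1 below it. Ogdh fell in db/db against db/+ (-0.97, SE 0.117, edgeR adjusted p = 0.00168), to 51.0% of the db/+ level. The difference of 0.84 between KO_db/db and db/db (SE 0.192, edgeR adjusted p = 0.123) was called by DESeq2 (adjusted p = 0.000986). KO_db/db against db/+ gave -0.11 (95% interval -0.479 to 0.264), with a positive sign without KO_db/db mouse 2 and with total counts as the scale. Dlst, the succinyltransferase of the same complex, fell in KO_db/db against db/+ (-0.31, SE 0.0906, edgeR adjusted p = 0.0365), a call lost without KO_db/db mouse 1 or 2, or db/+ mouse 1 or 2. The succinyl-CoA ligase subunits Sucla2, Suclg1 and Suclg2 were called in no comparison.

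From succinate to oxaloacetate, 2 of 6 members fell in db/db against db/+, both of them subunits of succinate dehydrogenase, the enzyme that the TCA cycle shares with the respiratory chain. Sdhc (chromosome 1, 171127165 to 171150603), a membrane anchor, had 45.8 and 39.7 CPM in db/db, 76.2, 82.8 and 82.5 CPM in db/+, and 56.1 and 49.0 CPM in KO_db/db. All 4 libraries of Lepr db/db mice were below the db/+ libraries. Sdhc fell in db/db (-0.93, SE 0.113, edgeR adjusted p = 0.00178) and in KO_db/db (-0.61, SE 0.0999, edgeR adjusted p = 0.00511) against db/+, and the 0.30 between KO_db/db and db/db was not called (edgeR adjusted p = 0.324). Sdha, the flavoprotein subunit, had 160 and 163 CPM in db/db, 230, 235 and 223 CPM in db/+, and 251 and 214 CPM in KO_db/db. The db/db libraries were below all others, and those of KO_db/db lay on either side of the db/+ range. Sdha fell in db/db against db/+ (-0.52, SE 0.1, edgeR adjusted p = 0.00856), and KO_db/db gave 0.52 against db/db (edgeR adjusted p = 0.166, DESeq2 adjusted p = 0.0252) and 0.03 against db/+ (95% interval -0.235 to 0.292). Without KO_db/db mouse 1 the last value was -0.09. With total counts as the scale the call in db/db was lost (-0.0238, edgeR adjusted p = 0.861). Sdhb, the iron-sulphur subunit, Sdhd, the second anchor, fumarase (Fh1) and the mitochondrial malate dehydrogenase Mdh2 were called in no comparison.

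In the malate-aspartate shuttle, 1 of 6 members fell in db/db against db/+. Mdh1 (chromosome 11, 21556787 to 21572367), the cytosolic malate dehydrogenase, had 182 and 170 CPM in db/db, 157, 168 and 188 CPM in db/+, and 184 and 173 CPM in KO_db/db. Its groups overlapped in all 3 comparisons. The log2 fold change in db/db against db/+ was 0.03 (95% interval -0.253 to 0.311, edgeR adjusted p = 0.872), with either sign when 1 library was left out. Slc25a11, the carrier that exchanges malate and 2-oxoglutarate, had 40.8 and 43.8 CPM in db/db, 58.7, 58.3 and 61.0 CPM in db/+, and 44.4 and 42.8 CPM in KO_db/db. It fell against db/+ in db/db (-0.50, SE 0.102, edgeR adjusted p = 0.0103) and in KO_db/db (-0.44, SE 0.0848, edgeR adjusted p = 0.00881), by amounts that left db/db and KO_db/db overlapping. With total counts as the scale both calls were lost (-0.00565, edgeR adjusted p = 0.968, in db/db and -0.22 in KO_db/db), and the call in db/db was also lost at a threshold of 0.01. The transaminases Got1 and Got2 and the aspartate-glutamate carriers Slc25a12 and Slc25a13 were called in no comparison.

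Both members of the glycerol phosphate shuttle changed in db/db, in opposite directions. Gpd1 (chromosome 15, 99717515 to 99725005), the cytosolic enzyme that makes glycerol 3-phosphate, had 109 and 77.4 CPM in db/db, 32.0, 29.9 and 23.3 CPM in db/+, and 44.0 and 68.7 CPM in KO_db/db. The 3 groups did not overlap, with KO_db/db in between. Gpd1 rose in db/db (1.70, SE 0.19, edgeR adjusted p = 0.00137) and in KO_db/db (1.00, SE 0.213, edgeR adjusted p = 0.0123) against db/+, the latter call being lost without KO_db/db mouse 2 (0.62, edgeR adjusted p = 0.0538). The difference of -0.73 between KO_db/db and db/db was not called (edgeR adjusted p = 0.226).

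Gpd2 (chromosome 2, 57237635 to 57370719), the mitochondrial enzyme that returns the electrons to the respiratory chain and is known for its high activity in β-cells, had 60.4 and 49.8 CPM in db/db, 116, 94.9 and 99.4 CPM in db/+, and 52.8 and 63.5 CPM in KO_db/db. All 4 libraries of Lepr db/db mice lay below the db/+ libraries, and the first and last of these groups overlapped. Gpd2 fell in db/db (-0.92, SE 0.142, edgeR adjusted p = 0.00377) and in KO_db/db (-0.82, SE 0.13, edgeR adjusted p = 0.0045) against db/+. Between KO_db/db and db/db the log2 fold change was 0.08 (95% interval -0.349 to 0.501), and its sign turned with total counts as the scale and without KO_db/db mouse 2 or db/db mouse 2.

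Of the malic enzymes and carriers of citrate or dicarboxylates, 0 of 5 members were called in db/db against db/+ by the main edgeR fit. There Me2 and Me3 had unadjusted p under 0.05. Me3 was called higher in db/db against db/+ by DESeq2 and by several other edgeR fits. These were the fits with total counts, no filter, the mouse number as a block, and without db/+ mouse 3. Of the 5, 2 rose in KO_db/db against db/+. Me3 (chromosome 7, 89632392 to 89854359), a mitochondrial NADP-dependent malic enzyme, had 40.5 and 28.4 CPM in KO_db/db, 21.0 and 40.6 CPM in db/db, and 15.6, 12.7 and 21.3 CPM in db/+. The KO_db/db libraries were above all of db/+, and the db/db libraries were far apart. Me3 rose in KO_db/db against db/+ (1.06, SE 0.242, edgeR adjusted p = 0.0151), a call lost without KO_db/db mouse 1 (0.78) or db/+ mouse 1 (1.02), and the 0.89 of db/db against db/+ was not called (edgeR adjusted p = 0.0671). Slc25a10 (chromosome 11, 120491840 to 120499187), the dicarboxylate carrier, had 11.4 and 10.3 CPM in KO_db/db, 9.01 and 11.2 CPM in db/db, and 8.23, 6.89 and 8.24 CPM in db/+. Its KO_db/db and db/db libraries were all above db/+ by a narrow margin. It rose in KO_db/db against db/+ (0.49, SE 0.158, edgeR adjusted p = 0.0483), and the call was lost in each of the 5 fits without 1 library (0.41 to 0.55). The citrate carrier Slc25a1 and the malic enzymes Me1 and Me2 were called in no comparison.

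Glud1 (chromosome 14, 34310727 to 34345265), the mitochondrial glutamate dehydrogenase through which glutamate enters as 2-oxoglutarate, had 99.5 and 129 CPM in db/db, 104, 119 and 106 CPM in db/+, and 116 and 110 CPM in KO_db/db. Its groups overlapped in all 3 comparisons, and in db/db against db/+ the log2 fold change was 0.05 (95% interval -0.287 to 0.386, edgeR adjusted p = 0.811).

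Ratios of 2 levels within a library do not depend on how libraries are scaled, and are given as a description with no test. They are ratios of CPM, not corrected for transcript length. They can be compared between groups, but do not tell which of the 2 mRNAs was more abundant. Pc to Pdha1, the entry by carboxylation over that by decarboxylation in terms of mRNA, was 0.254 and 0.365 in db/db, 1.95, 1.82 and 1.72 in db/+, and 1.54 and 1.55 in KO_db/db. The KO_db/db ratios lay near but below those of db/+, and both were several-fold above db/db. The 4 kinases summed over Pdha1 gave 2.03 and 1.49 in db/db, 0.804 to 0.905 in db/+, and 1.25 and 1.11 in KO_db/db, with no overlap. Idh1 to Idh2 was 1.11 and 1.03 in db/db, 0.227 to 0.282 in db/+, and 0.537 and 0.503 in KO_db/db. Gpd1 to Gpd2, a ratio added after the values were seen, was 1.80 and 1.56 in db/db, 0.234 to 0.316 in db/+, and 0.832 and 1.08 in KO_db/db. In these 4 ratios the KO_db/db libraries lay between the other groups.

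**Figure D4:**
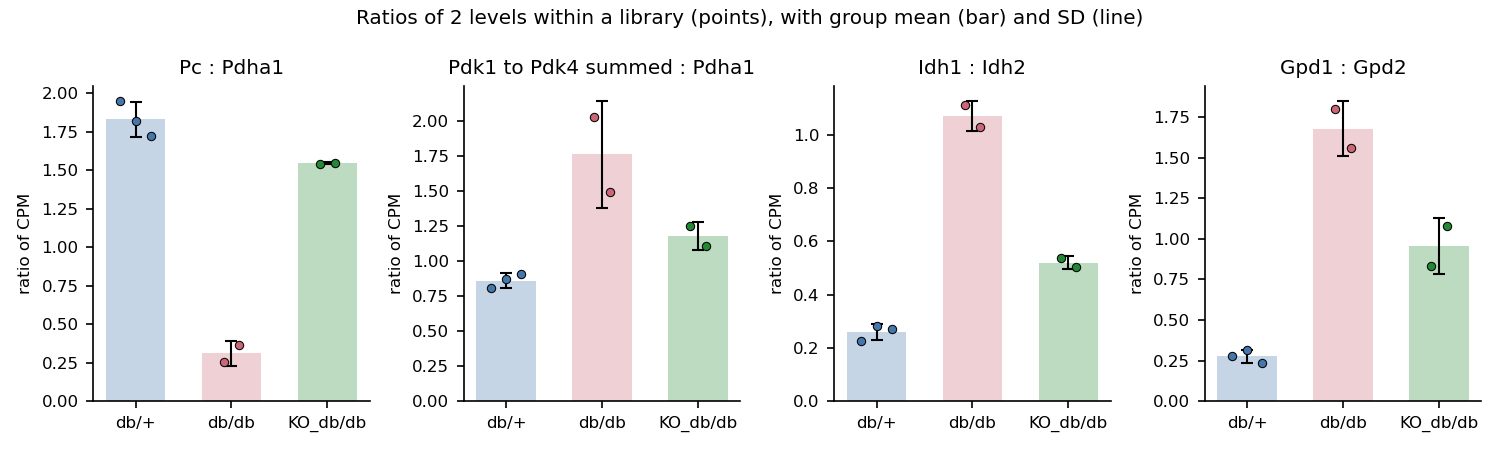
Ratio of 2 levels in CPM within each library (points), with the group mean as a bar from 0 and the SD as a line (n = 3 for db/+, 2 for db/db and 2 for KO_db/db). Ratios are not corrected for transcript length. KO_db/db lies between db/db and db/+ in each panel, at 1.54 and 1.55 near the 1.72 to 1.95 of db/+ for Pc to Pdha1.

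In other ratios KO_db/db overlapped or lay close to one of the other groups, or lay beyond both. Gpd2 to Mdh1 was 0.331 and 0.293 in db/db and 0.287 and 0.368 in KO_db/db, below the 0.529 to 0.739 of db/+. Among subunits of 1 enzyme, Sdhc to Sdhb was 1.01 and 0.765 in db/db and 0.996 and 0.917 in KO_db/db, below the 1.54 to 1.81 of db/+. Idh3a to Idh3g was 0.456 and 0.471 in db/db, slightly higher in KO_db/db (0.477 and 0.493), and 0.663 to 0.705 in db/+. Both subunit ratios were added after the values were seen. Slc25a12 to Slc25a13 was 10.8 and 12.2 in db/db and 12.5 and 13.3 in KO_db/db, above the 7.13 to 8.03 of db/+. Me1 to Me3 was 0.396 to 0.947 in the 4 libraries of Lepr db/db mice and 0.873 to 1.60 in db/+, which overlap, and Mdh1 to Mdh2 was 1.58 and 1.80 in db/db, 1.34 to 1.46 in db/+ and, just above these, 1.47 in both KO_db/db libraries. Got1 to Got2, from 0.225 to 0.278, overlapped between all groups.

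The 44 members together took 0.319% and 0.302% of the counts in db/db, 0.250% to 0.253% in db/+, and 0.253% and 0.311% in KO_db/db. Ins1 and Ins2 took 21.8% and 23.5% in db/db, 32.2% to 36.1% in db/+, and 23.4% and 24.4% in KO_db/db. With the insulin genes left out of the total, the mean shares of the members were 0.402%, 0.38% and 0.37% in the same order. The KO_db/db mean joins 2 unlike libraries. Mouse 1, with 17.6% of its counts in acinar markers, had the 0.253% given above, and mouse 2, with 1.99%, the 0.311%. Acinar genes are part of the total in these shares.

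Of 30 related genes of the same pathways, 28 could be tested in db/db against db/+, where 1 was higher and 10 were lower (39.3% called, beside 37.8% of all genes, with 19.9% higher and 18.0% lower). The largest changes called were those of Pck1, Nnt and Sdhaf4. Nnt, the inner-membrane transhydrogenase that makes mitochondrial NADPH, had 11 and 23.5 CPM in db/db, 75.8, 79.1 and 88.5 CPM in db/+, and 49.2 and 60.7 CPM in KO_db/db. The 3 groups did not overlap, and Nnt fell in db/db against db/+ (-2.24, SE 0.313, edgeR adjusted p = 0.00268). The part of genetic background in this difference was not tested. Sdhaf4, an assembly factor of succinate dehydrogenase, fell to 50.5% of the db/+ level in db/db (-0.98, SE 0.16, edgeR adjusted p = 0.00449). Pck1, the cytosolic phosphoenolpyruvate carboxykinase, was rare throughout, with 0.91 and 2.25 CPM in db/db and 0, 0.109 and 0 CPM in db/+. It rose in db/db against db/+ (5.265, SE 1.07, 95% interval 2.71 to 7.82, edgeR adjusted p = 0.0101). Pooled counts, 125 over both db/db libraries and 3 over the 3 db/+ libraries, gave a ratio of 44.3. The 95% interval of that ratio, 14.8 to 218, measures counting alone and leaves out the spread between mice. Others called lower in db/db included the mitochondrial carboxykinase Pck2 (-0.97), lactate dehydrogenase B (Ldhb, -0.97), the phosphatase Pdp1 that switches pyruvate dehydrogenase on (-0.83), Ogdhl (-0.54), Gpt2 (-0.71) and D2hgdh (-0.83).

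With KO_db/db set against db/db, edgeR called 0 of the 28 related genes tested, of which 8 had an unadjusted p under 0.05 (all genes: 0.319% called and 20.9% with such a p). Of 26 tested in KO_db/db against db/+, 2 were higher and 7 lower (34.6% called, beside 38.4% of all genes, with 20.5% higher and 17.9% lower). The 2 higher genes were the alanine transaminase Gpt, at 12.9 CPM in KO_db/db mouse 1, 2.45 CPM in mouse 2 and 1.72 to 1.97 CPM in db/+, and Ldha, at 10.2, 0.51 and 0.0346 to 0.327 CPM. Both were high in the library with an acinar share of 17.6% of counts, and the part of that share in their levels was not tested. The lower genes included Pdp1, Sdhaf2, Sdhaf4, Gpt2, Nnt and the glutamine synthetase Glul, which had 214 and 174 CPM in KO_db/db and 519 to 709 CPM in db/+.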

How the data were processed

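Estimated counts per gene were deposited by the authors, who made them from paired-end poly-A sequencing with kallisto on GRCm38. The submitters' processing notes list bcl2fastq 2.19 and kallisto 0.44.0. The annotation release is not given in the sources used here. kallisto divides reads that fit several transcripts, so counts of members with close copies are uncertain. The values were not normalized and were rounded to whole numbers before use, and 0 columns were left unused. Samples were grouped by the genotype in their labels.

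For each comparison, only the libraries of its 2 groups were fitted, in R 4.3.3 with edgeR 4.0.16 (filterByExpr, minimum count 10, TMM, quasi-likelihood test, Benjamini-Hochberg adjustment, threshold 0.05). Standard errors were derived from the fold change and its F statistic. CPM used TMM factors over all 7 libraries, and CPM per kilobase the principal transcript of GENCODE M21. The fits were tested on simulated data. Replicates differed by more than sampling noise.

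The members, roles, related genes and marker lists were chosen with earlier results of these data known. Values in every library are given for members called in KO_db/db against db/db, the 10 with the largest called change in each comparison with db/+, the most abundant member of a role with none of these, and any other member where its libraries bear on a result (Idh3a, Sdha and Slc25a11, chosen after their values were seen). Of related genes, the 3 with the largest called change in db/db were named with values, with others called given in a clause, except 2 that are counted but not reported here. Alternatives were RLE scaling, total counts, counts without acinar and Reg genes, DESeq2 1.42.0, no filter, 1 fit of all libraries, the mouse number as a block, an adjusted p under 0.01 and leaving out each library.

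The mouse numbers do not pair the samples: nothing ties mice of the same number together, and deviations from group means correlated at 0.0777, -0.0588 and -0.104 in the 3 comparisons.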

Additional observations from a re-analysis of the deposited data

How the results depend on the processing

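Total counts as the scale moved the median log2 fold change of all genes to 0.497 in db/db against db/+, -0.276 in KO_db/db against db/db, and 0.214 for KO_db/db over db/+, and that of the members to 0.422, -0.20 and 0.221. With it, 22 members were higher in db/db against db/+ (50.5% of all genes called), 4 were lower in KO_db/db against db/db (9.05%) and 0 were lower in KO_db/db against db/+ (27.4%). In KO_db/db against db/db, DESeq2 gave 4 members higher and 2 lower (9.59% of all genes called), no filter on low counts 3 and 4 (1570 of 19621 genes), and 1 fit of all libraries 2 and 2 (5.93%), while a threshold of 0.01 gave 0 higher and 0 of all genes. In KO_db/db against db/+ that threshold left 1 higher and 5 lower (18.1%). Leaving out 1 library at a time gave 0 to 1 higher and 0 to 2 lower in KO_db/db against db/db, and 2 to 4 higher and 5 to 8 lower in KO_db/db against db/+. The members' median then ran from -0.137 to -0.056 in db/db against db/+, -0.0215 to 0.0523 in KO_db/db against db/db and -0.0287 to 0.0394 in KO_db/db against db/+. Counts without the insulin genes put the members' mean share at 0.37% in KO_db/db, 0.402% in db/db and 0.38% in db/+. The KO_db/db mean includes mouse 1, the library with the high acinar share. A lone library left in a group was assumed to vary like the other group.

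The mouse number as a replicate block, which pairs nothing that the labels tie together, left 0 members higher in KO_db/db against db/db (Pc 2.21, edgeR adjusted p = 0.0798) and 3 higher in KO_db/db against db/+. With it, each of the 14 calls in db/db against db/+ held.

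Among single members, the log2 fold change of 15, 14 and 9 of 44 changed sign with total counts in db/db against db/+, KO_db/db against db/db and KO_db/db against db/+, and that of 11, 14 and 8 in at least 1 fit without a library, 0 of them called in that comparison. Those named here are some of them. With total counts these included Dlst in db/db against db/+ (0.29), Pdk2 (-0.13), Slc25a11 (-0.22), Gpd2 (-0.16) and Me3 (-0.13) in KO_db/db against db/db, and Pc (0.0962) and Ogdh (0.0806) in KO_db/db against db/+. As examples with 1 library left out, db/db against db/+ ran from -0.43 without db/db mouse 1 to 0.96 without db/db mouse 2 for Pdhb, from -0.0298 to 0.103 for Mdh1 (-0.0231 without db/db mouse 1) and from -0.16 to 0.22 for Glud1. KO_db/db against db/db ran from -0.0125 to 0.0908 for Slc25a11, from -0.0582 to 0.22 for Gpd2 (-0.0578 without db/db mouse 2) and from -0.24 without db/db mouse 1 to 0.71 for Me3 (-0.12 without KO_db/db mouse 1). KO_db/db against db/+ ran from -0.34 to 0.0798 for Ogdh and from -0.0931 without KO_db/db mouse 1 to 0.13 for Sdha. In these fits without 1 library, Pdhb alone of the members named here was called, with either sign. The cause was not tested. With 2 libraries in a group, 1 mouse weighs heavily, and a p over the threshold does not show that groups were alike.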
